A study of Mus musculus with 10 samples.

Results

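The insulin-like growth factor (IGF) genes were followed in whole lungs of 30-day-old wild-type mice. The genes were picked by symbol from the deposited table of gene expression, and 10 of its 54532 genes carry these symbols: the ligand genes Igf1 and Igf2, the receptor genes Igf1r and Igf2r, and the binding protein genes Igfbp2, Igfbp3, Igfbp4, Igfbp5, Igfbp6 and Igfbp7. In the IPF group (increased pulmonary flow, 5 mice), an aortocaval fistula was made on postnatal day 7 by a puncture between the abdominal aorta and the inferior vena cava, which raises blood flow through the lung. The sham group (5 mice) had the same operation without the puncture. All mice were C57BL/6J of wild-type genotype, were killed at P30 (postnatal day 30) and gave 1 library of whole-lung mRNA each. The values are FPKM, fragments scaled by gene length and library size, so that levels of different genes can be compared per length.

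IGF-1 and IGF-2 are secreted peptides that promote growth and survival of cells. Both act through the IGF-1 receptor, a tyrosine kinase of the insulin receptor kind, whereas the IGF-2 receptor, also the receptor for mannose 6-phosphate, takes IGF-2 into the cell for degradation. The binding proteins hold IGFs outside the cell, where they prolong the stay of the peptides and limit or direct their access to the receptor, until proteases release them. In the lung, IGF signaling is known for its part in growth before birth and in the formation of alveoli and vessels after it.

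Of the 9 genes that could be tested, only Igfbp3 differed between the groups in a test over all genes with the 10 libraries, and it was higher in the IPF lungs. Of all genes tested, 5.85% differed by that test. Igfbp7 was higher in every IPF lung than in every sham lung by a smaller margin and did not pass that test. Of all genes tested, 4.52% were higher in every IPF lung than in every sham lung. Igf1 was higher in 4 of 5 IPF lungs than in every sham lung and lowest of all in the remaining one. The other 7 genes overlapped between the groups.

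The promoters of Igfbp3 and Igfbp7 are shown because these were the genes of the set whose groups did not overlap. Each is the 250 bases before the RefSeq start in GRCm38.p6, on the minus strand and read 5′ to 3′, at chr11:7213924-7214173 for Igfbp3 and chr5:77408046-77408295 for Igfbp7. Capitals mark GGGCGG on either strand, the GC-box that Sp1 binds.
Igfbp3: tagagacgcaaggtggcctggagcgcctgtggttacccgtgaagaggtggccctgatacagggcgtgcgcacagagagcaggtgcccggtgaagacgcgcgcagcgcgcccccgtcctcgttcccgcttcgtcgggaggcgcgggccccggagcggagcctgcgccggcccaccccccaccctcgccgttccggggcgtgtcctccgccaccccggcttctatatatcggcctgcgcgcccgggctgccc
Igfbp7: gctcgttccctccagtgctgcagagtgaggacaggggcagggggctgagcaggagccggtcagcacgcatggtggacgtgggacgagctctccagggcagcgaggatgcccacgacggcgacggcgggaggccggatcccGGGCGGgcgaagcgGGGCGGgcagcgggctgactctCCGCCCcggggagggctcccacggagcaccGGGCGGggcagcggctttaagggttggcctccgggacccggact
Both windows were rich in G and C, at 73.2% for Igfbp3 and 74.0% for Igfbp7, beside a median of 52.4% over 32851 RefSeq promoters. Igfbp7 held the GC-box 4 times and Igfbp3 did not hold it, and 32.7% of all promoters held it at least once. Of the 14 promoters of the 10 genes, 2 held CACGTG, the E-box bound by clock factors, namely those of Igf2r and 1 of Igfbp2 (6.02% of all promoters). None of the 14 held GTAAACA, a motif of forkhead factors, on either strand (3.17% of all promoters), and 2, those of Igfbp4 and Igfbp6, held TATAAA (12.4%). These are matches of letters in the windows and not measured sites.

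The libraries held 15483046 to 19026843 reads on genes, recovered from the FPKM values, and their lung origin was plain, with summed FPKM of 6 alveolar type 2 cell genes from 12755 to 20198. The groups also differed in sex: Xist was at 26.8 to 43.2 FPKM in the IPF and at most 0.0767 FPKM in the sham lungs, and the Y-linked Ddx3y was at 0 in all 5 IPF and at 14.3 to 21.4 FPKM in all 5 sham lungs. The operation and sex therefore cannot be told apart in any comparison here. The same holds for 10 genes of the circadian clock, whose summed FPKM was 61.6 to 115.4 in the IPF and 213.2 to 263.7 in the sham lungs. Of these, 7 were called lower (2.14% of all genes), and Arntl, Npas2 and Clock were called higher (3.71% of all genes). The hour of collection is not given in the sources used here. Among the libraries, sham replicate 1 stood apart over all genes (mean Spearman correlation with the others 0.912, against 0.929 to 0.932 for the other 9, across genes), and IPF replicate 5 had the highest sum of 5 neutrophil genes, 291.2 FPKM against 50.7 to 71.4 FPKM in the other IPF and 13.9 to 70.2 FPKM in the sham lungs. In whole tissue, fewer cells of a type and less RNA per cell cannot be told apart.

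By level, the order was led by the binding proteins. Igfbp7 had by far the highest level in all 10 libraries, with a mean 5.80 times that of Igfbp6, the next. Igfbp6 and Igfbp2 exchanged places between libraries, Igfbp6 being the higher in 6 of 10, and so did Igfbp5 and Igfbp4, with Igfbp5 the higher in 7 of 10. Igfbp3 was the lowest of the 6 binding proteins in all 10 libraries, IPF lungs included. Igf2r followed and was above Igf1r in all 10 libraries, with a mean 2.06 times as high. Igf1r and Igf1 were close, Igf1r being the higher in 7 of 10, and Igf2 came last in every library.

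**Figure D1:**
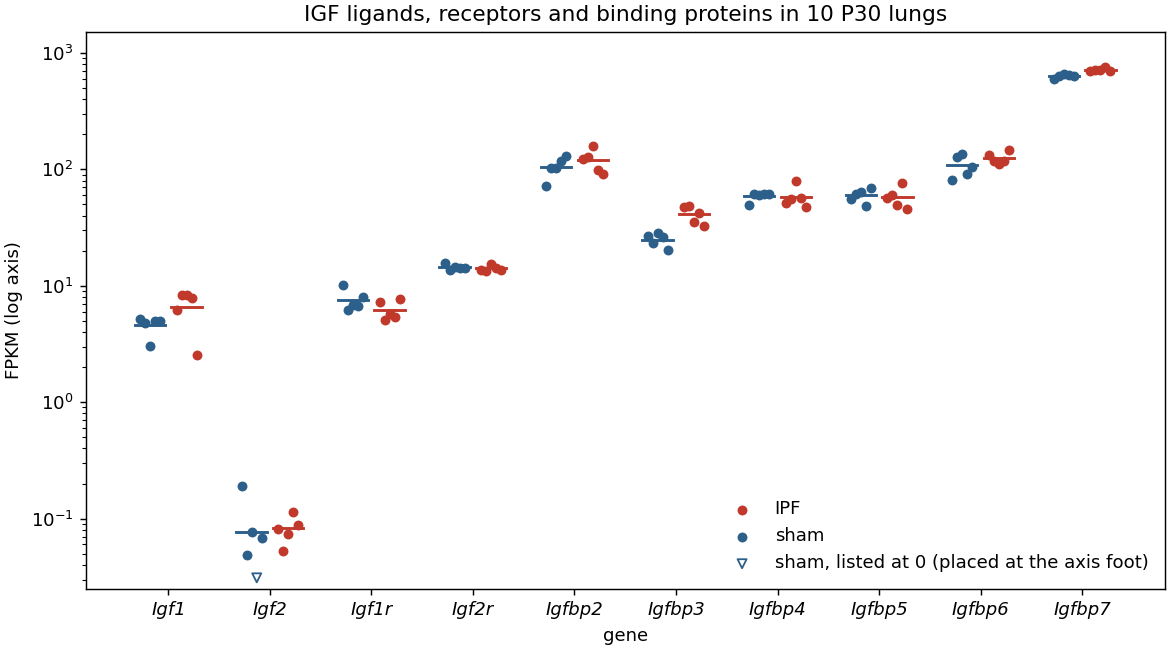
FPKM (log axis) of the 10 IGF genes in each of 5 sham (blue) and 5 IPF (red) lungs, 1 point per mouse, with a line at each group's mean. The groups are separate for Igfbp3 and Igfbp7, 4 of 5 IPF lungs lie above all sham lungs for Igf1, and Igf2 lies at 0.191 FPKM or below, with 1 sham lung listed at 0 (open triangle, placed at the foot of the axis).

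Igf1 (ENSMUSG00000020053, chromosome 10 of GRCm38, 87858265 to 87937042) encodes the growth factor that growth hormone induces in liver and that mesenchymal cells and macrophages make locally in lung. It was at 6.16, 8.30, 8.26, 7.78 and 2.55 FPKM in IPF replicates 1 to 5, and at 5.19, 4.77, 3.06, 4.95 and 4.96 FPKM in sham replicates 1 to 5. IPF replicate 5 thus had the lowest level of the 10 lungs, and the other 4 IPF lungs had the 4 highest. Over all libraries the means were 6.61 ± 2.43 FPKM in the IPF and 4.59 ± 0.865 FPKM in the sham group (SD, n = 5 each), with a log2 fold change of 0.43 (standard error 0.30, 95% interval -0.22 to 1.08, limma adjusted p = 0.474). The groups could not be separated beyond the scatter of the mice (exact two-sided permutation p = 0.262).
One library decided this value. Without IPF replicate 5 the IPF mean was 7.63 ± 1.01 FPKM (SD, n = 4), the groups did not overlap, and the log2 fold change was 0.73 (standard error 0.16, limma adjusted p = 0.0181; exact two-sided permutation p = 0.0159, the smallest that 4 against 5 allow). IPF replicate 5 was singled out by its low Igf1 level, so the lack of overlap and the exact p were fixed beforehand. The p-values without that library are therefore no test of Igf1. Without that library, 7.88% of all genes tested had a limma adjusted p under 0.05. Leaving out any other library gave Igf1 a limma adjusted p from 0.502 to 0.685, and weighting the libraries by their quality gave 0.186. IPF replicate 5 also had the lowest sum of 8 fibroblast genes, 488.0 FPKM against 529.2 to 674.1 FPKM in the other IPF and 557.8 to 621.3 FPKM in the sham lungs. Of these genes 2 were called, Pdgfra and Lum, both higher in IPF, beside 3.71% of all genes called higher. The log2 fold change was positive for Dcn (0.18). It was negative for Tcf21 (-0.24), Col1a1 (-0.20), Col1a2 (-0.14), Col3a1 (-0.10) and Dpt (-0.0026). The neutrophil sum of IPF replicate 5 (0 of 5 called) is given above, and its clock sum of 115.4 FPKM was the highest IPF value, against 61.6 to 75.7 FPKM in the other IPF lungs. The part of any of these in the level of Igf1 was not tested. Liver mRNA was near 0, with 0.481 to 1.58 FPKM summed over 5 liver genes and Serpina1a at 0 in all 10 lungs.

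The genes most like Igf1 were sought among 13444 others with a mean of at least 1 FPKM, by the Pearson correlation of log2 values after each group's mean was removed. Bmp3, a ligand of the BMP family, came first (r = 0.964 over 10 libraries), followed by Hr, a nuclear corepressor (0.964), and Eln, which encodes elastin (0.961). All 3 had their lowest IPF value in IPF replicate 5. Eln was at 97.7 FPKM in that lung and at 195.1 FPKM or more in the other IPF lungs, beside a sham mean of 101.6 FPKM. Bmp3 was at 18.5 FPKM beside 23.3 FPKM or more. Unlike Igf1, Bmp3 in that lung still lay above every sham lung (11.8 FPKM at most). The likeness is a description over 10 libraries in which 1 library carries much of the spread.

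Igf2 (ENSMUSG00000048583, chromosome 7, 142650766 to 142666816) encodes the fetal growth factor, expressed from the paternal copy and shut down in most mouse tissues after birth. It held 5 to 12 reads per IPF library and 0 to 18 reads per sham library, which gave 0.0825 ± 0.0228 FPKM in the IPF and 0.0769 ± 0.0703 FPKM in the sham group (SD, n = 5 each). Its mean stayed under 0.1 FPKM, the minimum for testing, so it was the one gene of the 10 without a test there, and without that minimum it was tested and not called. The highest value, 0.191 FPKM, was that of sham replicate 1, and sham replicate 4 was listed at 0. A difference was not detectable at this depth.

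Igf1r (ENSMUSG00000005533, chromosome 7, 67952827 to 68233668) encodes the signaling receptor. It was at 7.28, 5.06, 5.73, 5.40 and 7.67 FPKM in IPF replicates 1 to 5 and at 10.1, 6.24, 6.88, 6.74 and 7.93 FPKM in sham replicates 1 to 5. Of the IPF lungs, 3 lay below all sham lungs, and IPF replicates 1 and 5 lay within the sham range. The log2 fold change was -0.28 (standard error 0.15, 95% interval -0.61 to 0.05, limma adjusted p = 0.346; exact two-sided permutation p = 0.135). Sham replicate 1 had the highest level of all, and without it the log2 fold change was -0.17, at a limma adjusted p of 0.563. The genes most like Igf1r, by the measure used for Igf1, were Mkl2, a coactivator of serum response factor (r = 0.983), Abl1, a tyrosine kinase (0.977), and Pacsin2, a protein of membrane trafficking (0.976). In all 3, as in Igf1r, sham replicate 1 had the highest sham value.
Igf2r (ENSMUSG00000023830, chromosome 17, 12682406 to 12769664) was the steadiest of the set beside Igfbp7. It lay between 13.4 and 15.5 FPKM in the IPF and between 13.5 and 15.6 FPKM in the sham lungs, with a coefficient of variation of 6.00% and 5.38%. Its log2 fold change was -0.03 (95% interval -0.16 to 0.10, limma adjusted p = 0.828). The antisense gene Airn overlaps Igf2r on the other strand at 1.88 FPKM on average, and whether reads were assigned by strand is not given in the sources used here.

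Igfbp3 (ENSMUSG00000020427, chromosome 11, 7206086 to 7213923) encodes the main carrier of IGFs in blood, which also binds cell surfaces and matrix in tissues. It was at 47.3, 48.6, 35.3, 41.7 and 32.9 FPKM in IPF replicates 1 to 5. In sham replicates 1 to 5 it was at 26.7, 23.2, 28.3, 26.0 and 20.3 FPKM. The lowest IPF lung lay above the highest sham lung. Among all genes tested, 7.29% had groups that did not overlap, 4.52% with IPF higher and 2.77% with IPF lower. The means were 41.2 ± 7.01 FPKM in the IPF and 24.9 ± 3.15 FPKM in the sham group (SD, n = 5 each), a 1.64-fold difference (95% interval 1.36 to 1.98). On the log2 scale this was 0.72 (standard error 0.12, limma adjusted p = 0.00731; exact two-sided permutation p = 0.00794, the smallest that 5 against 5 allow).
Igfbp3 rested on 971 to 2537 reads per library and ranked 338th of 20448 genes by p-value. It rose in each of the 20 alternative fits, where the log2 fold change lay between 0.65 and 0.79 and the limma adjusted p between 0.00195 and 0.0234. It did not reach a log2 fold change of 1. Its share of the summed FPKM of the 6 binding proteins was 3.09% to 4.34% in the IPF and 1.99% to 3.03% in the sham lungs. The neighboring gene Igfbp1, which lies 3539 bases away with no gene between, is a binding protein of liver and held at most 1 read in any library.

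**Figure D2:**
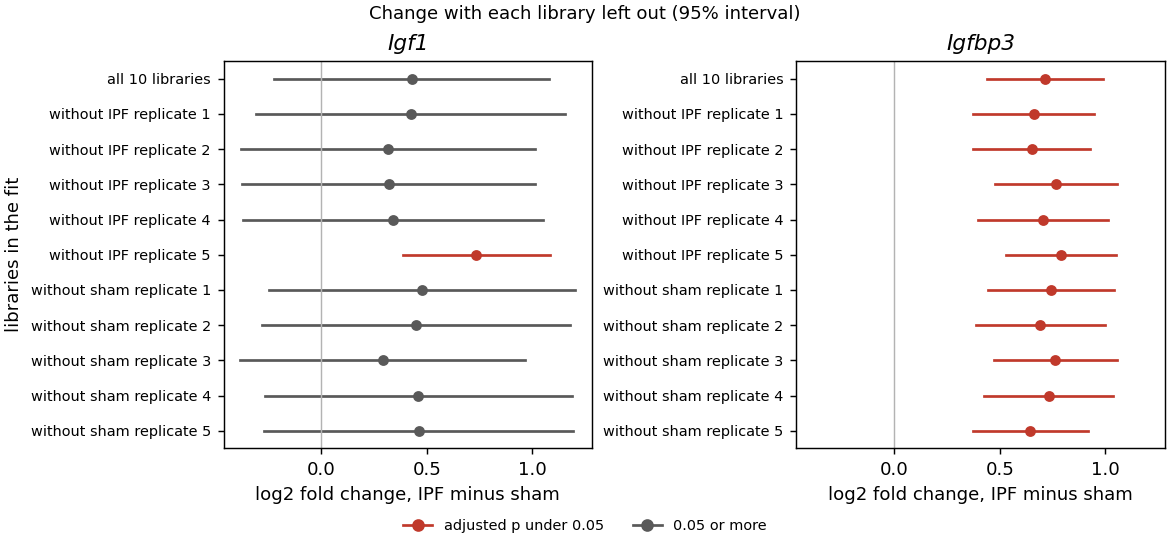
Log2 fold change of Igf1 (left) and Igfbp3 (right), IPF minus sham, on log2(FPKM + 0.1), with all 10 libraries and with each left out in turn. Points are estimates, bars 95% intervals, and red marks a limma adjusted p under 0.05. Igfbp3 stays between 0.65 and 0.79, and Igf1 passes the threshold only without IPF replicate 5.

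Igfbp7 (ENSMUSG00000036256, chromosome 5, 77349240 to 77408041) encodes a secreted protein of vessel walls that binds IGFs weakly and is abundant in endothelium. It was at 699.8, 712.0, 710.0, 755.1 and 700.8 FPKM in IPF replicates 1 to 5 and at 595.9, 636.1, 654.3, 645.4 and 637.8 FPKM in sham replicates 1 to 5. The groups did not overlap, the gap between the lowest IPF and the highest sham lung being small beside the level, and the coefficient of variation was 3.19% in the IPF and 3.54% in the sham group. The difference was 1.13-fold (95% interval 0.999 to 1.28), with an exact permutation p of 0.00794 (two-sided). Over all genes, its log2 fold change of 0.17 (standard error 0.08) had a limma adjusted p of 0.261, which ranged from 0.0879 to 0.845 over the alternatives. Under quantile normalization, which sets the distribution of all libraries equal, the log2 fold change was -0.05 (95% interval -0.27 to 0.18). It was 0.17 with median-of-ratios scaling and 0.17 by voom. The direction of Igfbp7 thus turned under quantile normalization and was kept in 19 of the 20 alternatives. The gene Polr2b overlaps Igfbp7 on the other strand at 17.1 FPKM on average, and the limit on strand given for Igf2r holds here too.
Of 13 marker lists for cell types, the endothelial list was the one whose summed level did not overlap between the groups. Its 6 genes summed to 1115 to 1235 FPKM in the IPF and 951.4 to 1034 FPKM in the sham lungs. Of these genes 1 passed the test (of all genes, 3.71% were called higher), the tight junction gene Cldn5 (limma adjusted p = 0.0107, log2 fold change 0.56). Its mean was 450.5 FPKM in the IPF and 308.5 FPKM in the sham group, so the separation of the sum rests largely on this gene. The log2 fold changes of the other genes were 0.31 for Egfl7, 0.24 for Kdr, 0.12 for Cdh5, 0.03 for Tie1 and -0.05 for Pecam1 (limma adjusted p from 0.119 to 0.804). No marker of the list was at 0. The part of the endothelial genes in the values of Igfbp3 and Igfbp7 was not tested.

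The remaining 4 binding proteins did not differ between the groups beyond the spread between mice. Igfbp2 (ENSMUSG00000039323, chromosome 1, 72824503 to 72852474), a binding protein of lung epithelium, was at 90.8 to 158.6 FPKM in the IPF and 72.1 to 129.9 FPKM in the sham lungs (log2 fold change 0.19, 95% interval -0.20 to 0.58, limma adjusted p = 0.611). Its lowest value was that of sham replicate 1, and without that library the log2 fold change was 0.06. Igfbp5 (ENSMUSG00000026185, chromosome 1, 72857932 to 72874884) lies 5457 bases from Igfbp2, the pair facing each other on opposite strands with no gene between. It was at 45.8 to 76.7 FPKM in the IPF and 48.5 to 69.3 FPKM in the sham lungs (log2 fold change -0.06, 95% interval -0.36 to 0.25, limma adjusted p = 0.874).
Igfbp4 (ENSMUSG00000017493, chromosome 11, 99041244 to 99054392), which inhibits IGF action until the protease PAPP-A cleaves it, was at 47.8 to 79.8 FPKM in the IPF and 49.4 to 60.7 FPKM in the sham lungs. Sham replicates 2 to 5 lay within 60.5 to 60.7 FPKM, and sham replicate 1 had the value of 49.4 FPKM. Its log2 fold change was -0.02 (95% interval -0.30 to 0.25, limma adjusted p = 0.952). Igfbp6 (ENSMUSG00000023046, chromosome 15, 102144362 to 102149511), which prefers IGF-2, was at 111.0 to 146.2 FPKM in the IPF and 81.2 to 134.4 FPKM in the sham lungs (log2 fold change 0.23, 95% interval -0.08 to 0.54, limma adjusted p = 0.401). Without sham replicate 1 the log2 fold change of Igfbp6 was 0.14, and with array weights 0.13.

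**Figure D3:**
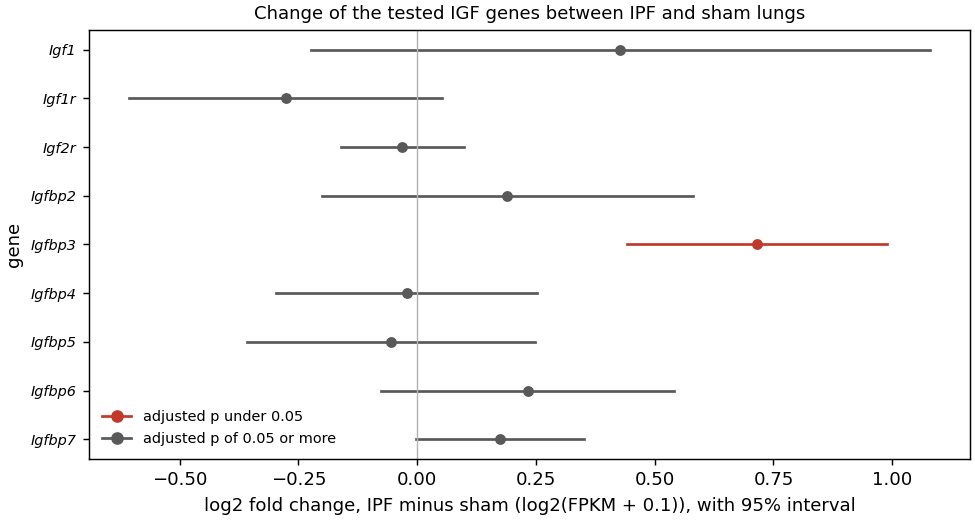
Log2 fold change (IPF minus sham, on log2(FPKM + 0.1)) of the 9 IGF genes tested, with 95% intervals from limma. Red marks an adjusted p under 0.05, reached by Igfbp3 at 0.72, and the intervals of the other 8 genes include 0.

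Of the 9 genes tested, 1 had a limma adjusted p under 0.05, beside 5.85% of all 20448 genes tested, and none had an absolute log2 fold change above 1 as well, beside 1.14% of all genes. The median log2 fold change of the 9 was 0.17, with 5 above and 4 below 0, and that of all genes tested was 0.00. Summed over the 6 binding proteins, the level was 1064 to 1147 FPKM in the IPF and 880.7 to 1043 FPKM in the sham lungs, and Igfbp7 made up 62.1% to 67.7% of it in every lung. IPF replicate 5 had the lowest IPF value in 5 of the 10 genes, and sham replicate 1 the lowest sham value in 4 and the highest in 4.

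The other genes of IGF signaling were read from a list of 44 genes, of which 41 could be tested. A limma adjusted p under 0.05 was reached by 3 of them, 1 higher (of all genes, 3.71% were called higher) and 2 lower (2.14%) in the IPF group. The median log2 fold change of the list was -0.01. All 3 calls lay close to the threshold, and the count ranged from 0 to 7 over the alternatives, with 6 calls by limma voom on the recovered reads (7.17% of all genes) and 7 with array weights (8.55% of all genes).
Irs2 (ENSMUSG00000038894, chromosome 8, 10984681 to 11008458) encodes an adaptor that couples the insulin and IGF-1 receptors to phosphoinositide 3-kinase. It was at 6.31, 6.39, 6.01, 6.47 and 8.97 FPKM in IPF replicates 1 to 5 and at 13.5, 8.44, 10.8, 9.36 and 9.54 FPKM in sham replicates 1 to 5. Only IPF replicate 5 reached into the sham range. The log2 fold change was -0.59 (standard error 0.14, limma adjusted p = 0.030; exact two-sided permutation p = 0.0159), and with 1 library left out at a time it missed the threshold in 5 of 10 cases (limma adjusted p from 0.00636 to 0.0753). Irs2 missed it in 8 of all 20 alternatives, also with no filter, a constant prior variance and the replicate block (limma adjusted p = 0.0513, 0.0578 and 0.0626). Its relative Irs1 was at 2.38 ± 0.262 FPKM in the IPF and 2.36 ± 0.442 FPKM in the sham group (SD, n = 5 each), with a log2 fold change of 0.02 (95% interval -0.27 to 0.31, limma adjusted p = 0.958) and a direction that quantile normalization turned.
Grb14 (ENSMUSG00000026888, chromosome 2, 64912476 to 65024987) encodes an adaptor that binds the insulin receptor and inhibits it. It was at 7.62, 8.58, 7.45, 8.88 and 5.76 FPKM in IPF replicates 1 to 5 and at 5.72, 5.78, 4.64, 5.95 and 5.27 FPKM in sham replicates 1 to 5. Here too 4 IPF lungs lay beyond all sham lungs and IPF replicate 5 did not. The log2 fold change was 0.47 (standard error 0.12, limma adjusted p = 0.0388; exact two-sided permutation p = 0.0238), and with 1 library left out at a time it missed the threshold in 9 of 10 cases, passing without IPF replicate 5 (limma adjusted p = 0.00401). Grb14 missed it in 12 of all 20 alternatives, also with no filter, quantile normalization and a constant prior variance (limma adjusted p = 0.0631, 0.0531 and 0.0683).

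Pappa2 (ENSMUSG00000073530, chromosome 1, 158711727 to 158980490) encodes a protease that cleaves IGFBP-3 and IGFBP-5. It was low, with 29 to 130 reads per library, at 0.200, 0.169, 0.303, 0.203 and 0.165 FPKM in IPF replicates 1 to 5 and at 0.566, 0.390, 0.278, 0.752 and 0.828 FPKM in sham replicates 1 to 5. Only IPF replicate 3 and sham replicate 3 overlapped. The log2 fold change was -1.05 (standard error 0.28, limma adjusted p = 0.0490; exact two-sided permutation p = 0.0159) with a pseudocount of 0.1 and -0.36 (limma adjusted p = 0.0630) with 1. It was -1.32 (limma adjusted p = 0.0470) with a pseudocount of 0.01 and -1.34 (limma adjusted p = 0.0167) by voom on the reads, and 13 of its 19 alternatives missed the threshold, the replicate block among them (limma adjusted p = 0.112). With 1 library left out at a time it missed the threshold in 8 of 10 cases, passing without IPF replicate 3 or sham replicate 3. The related protease Pappa was at 0.457 ± 0.208 and 0.598 ± 0.151 FPKM in the IPF and sham groups (SD, n = 5 each; limma adjusted p = 0.469).
Insr, the insulin receptor, was at 7.31 ± 0.735 FPKM in the IPF and 8.33 ± 1.21 FPKM in the sham group (SD, n = 5 each), with a log2 fold change of -0.18 (95% interval -0.40 to 0.04, limma adjusted p = 0.360) that was -0.10 without sham replicate 1. Igfals, which encodes the acid-labile subunit that joins IGFBP-3 and IGF in blood, held 8 to 34 reads per library and had a log2 fold change of 0.36, at a limma adjusted p of 0.491, which was 0.16 without sham replicate 1 and 0.14 with a pseudocount of 1. The 12 genes listed as signaling downstream of the receptors include Akt1 and Mtor and also Pdk1, which in mouse is a kinase of pyruvate dehydrogenase. Of these 12, 0 had a limma adjusted p under 0.05 (5.85% of all genes), 0 an unadjusted p under 0.05 (19.5%) and 0 a call by voom (7.17%). Their log2 fold changes lay between -0.17 and 0.10. Of the 7 genes for FOXO factors and their targets, 0 had a limma adjusted p under 0.05 (5.85% of all genes), 3 had an unadjusted p under 0.05 (19.5% of all genes) and 3 were called by voom (7.17% of all genes), Foxo3 with a negative and Foxo4 and Sesn3 with a positive log2 fold change.
H19 (ENSMUSG00000000031, chromosome 7, 142575529 to 142578143), the maternally expressed noncoding RNA gene imprinted together with Igf2, had the largest estimated change of the list and did not pass the test. It was at 2.34, 2.71, 2.86, 2.74 and 0.276 FPKM in IPF replicates 1 to 5 and at 0.321, 0.703, 0.608, 0.805 and 0.880 FPKM in sham replicates 1 to 5. The first 4 IPF lungs lay above all sham lungs, and IPF replicate 5 lay below them all, as for Igf1. For H19 this low place rests on 12 reads, beside 13 reads in the sham library with the fewest. The log2 fold change was 1.34 (95% interval 0.17 to 2.50, limma adjusted p = 0.186, exact two-sided permutation p = 0.0476). H19 passed the threshold without IPF replicate 5 (log2 fold change 1.91, limma adjusted p = 0.000861) and with array weights (limma adjusted p = 0.0450). The limit given for Igf1 without IPF replicate 5 holds for H19 too.

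**Figure D4:**
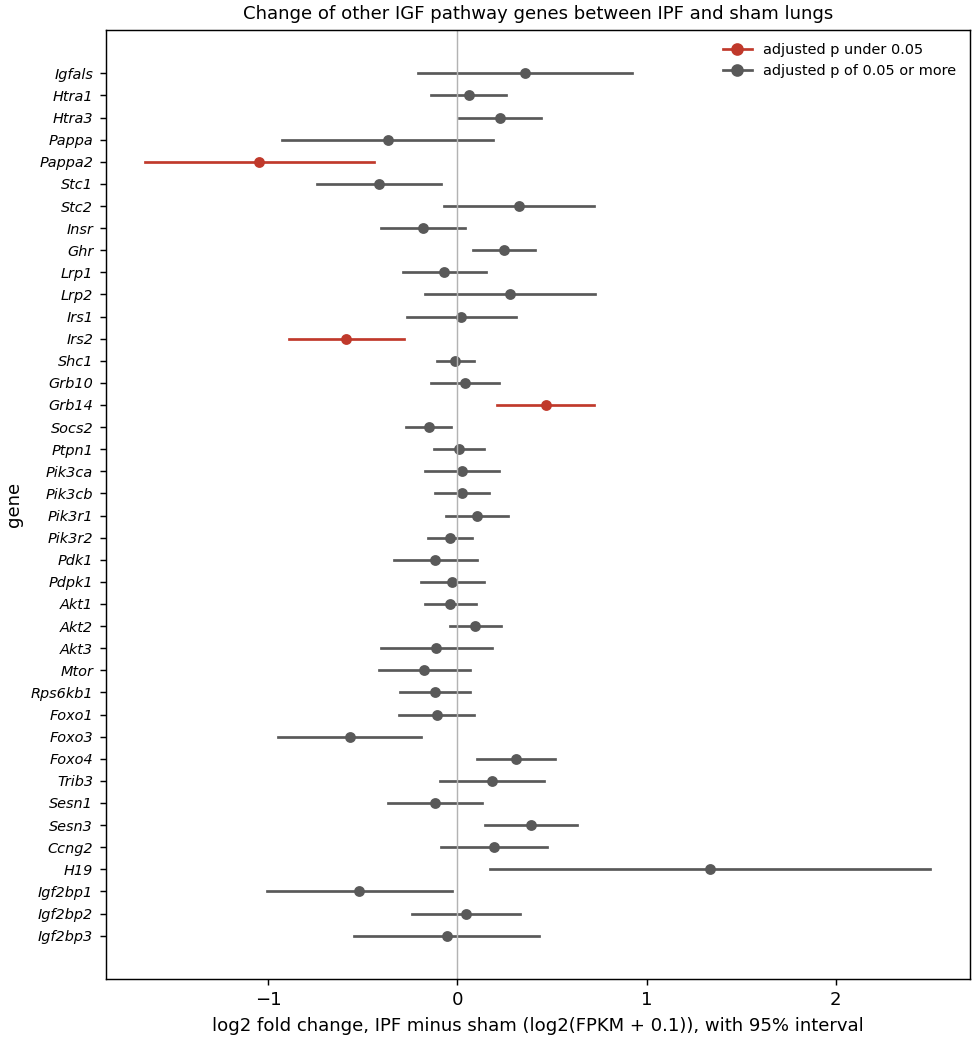
Log2 fold change (IPF minus sham, on log2(FPKM + 0.1)) of the other IGF pathway genes tested, all but 1 of them drawn, with 95% intervals from limma. Red marks the 3 with an adjusted p under 0.05, Pappa2 (-1.05), Irs2 (-0.59) and Grb14 (0.47).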

How the data were processed

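The deposited table holds 1 FPKM value per gene and sample. According to the methods, the authors used Fastp for trimming, HISAT2 for alignment and StringTie for quantification. The submitters' processing notes name Bowtie 0.12.2 and GRCm38, and the paper GRCm39. Coordinates in the table match GRCm38. Multiplying FPKM by gene length recovered whole reads for 100% of values up to 1000 reads (tolerance 0.02 reads).

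Genes with a mean of at least 0.1 FPKM entered a limma fit (version 3.58.1, R 4.3.3; trended empirical Bayes, two-sided, no covariate) on log2(FPKM + 0.1), and p-values were adjusted over all 20448 by Benjamini-Hochberg. Fold changes are on that scale, which understates changes of low genes. Exact permutation tests covered all assignments of samples (scipy 1.17.1). The script was tested on simulated data. DESeq2, the authors' tool, was not used. The labels do not say whether litters were shared, so p-values measure the spread between these samples. Intervals cover that spread only.

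The genes and lists were chosen with earlier results of these data known. Named genes are the 10 IGF genes, the called genes of the pathway list, those with under 3 reads in every library, and Insr, Igfals, Pappa, Pappa2, Irs1 and Irs2, with the 3 genes most like Igf1 and Igf1r each; Mtor, Akt1, Pdk1, H19, Foxo3, Foxo4, Sesn3 and the clock, fibroblast and 6 endothelial genes were named after their values were seen. Some genes of the pathway list are not reported here. Alternatives were pseudocounts of 1 and 0.01, no filter or a mean of at least 1 FPKM, median-of-ratios scaling, quantile normalization, array weights, a replicate block, limma voom on reads, a constant prior variance, and leaving out each library. Promoters are from RefSeq (GRCm38.p6), and all 10 genes matched by symbol.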

Additional observations from a re-analysis of the deposited data

Results flagged for a closer look

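Of 36 groups of 5 lungs examined, for the 10 IGF genes and the named pathway genes, 8 had 1 lung whose gap to the nearest other was over 0.71 of the group's range. For a single group, chance gives about 1 in 20. The 36 groups reuse the same 10 lungs, and H19, named after its values were seen, is among the 8. The 8 therefore cannot be compared with that rate. Sham replicate 1 was low for Igfbp4, at 49.4 FPKM beside 60.5 to 60.7 FPKM in the other sham lungs, and high for Insr, at 10.4 FPKM beside 7.44 to 8.23 FPKM. Sham replicate 3 was low for Igf1, at 3.06 FPKM beside 4.77 to 5.19 FPKM. IPF replicate 3 was high for Igfbp4, at 79.8 FPKM beside 47.8 to 56.7 FPKM, and for Pappa2, at 0.303 FPKM (59 reads) beside 0.165 to 0.203 FPKM. IPF replicate 4 was high for Igfbp7, at 755.1 FPKM beside 699.8 to 712.0 FPKM. IPF replicate 5 was high for Irs2, at 8.97 FPKM beside 6.01 to 6.47 FPKM, and low for H19, at 0.276 FPKM beside 2.34 to 2.86 FPKM. The level of Igf1 in IPF replicate 5, the lowest of all 10 lungs, was not among these gaps, since the other IPF lungs were themselves spread.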

How the results depend on the processing

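Igfbp3 kept its direction and its side of the threshold in all 20 alternatives. Over the values of 17 named genes, 290 of 337 alternatives kept both. With each library left out, the count of IGF genes with a limma adjusted p under 0.05 lay between 1 and 2, the 2 being Igf1 and Igfbp3 without IPF replicate 5. The count for the pathway list lay between 0 and 7, with 0 without IPF replicate 1, 2 or 4 and 7 without IPF replicate 5. That for all genes lay between 775 and 1620, the lowest without IPF replicate 4. In the main fit 12 of the 41 pathway genes had an unadjusted p under 0.05, beside 19.5% of all genes. The pathway count of 3 became 0 without the filter on low values (11 of 44 at an unadjusted p under 0.05). In that fit 908 of 31425 genes were called, and 4489 had an unadjusted p under 0.05. The pathway count was 1 with quantile normalization (1192 of all 20448 genes called), 1 with the replicate block (1045) and 1 with a constant prior variance (no variance trend, 960). With array weights it was 7 (1749 of all genes) and with voom 6 (1466). The cause was not tested. Directions turned for Igfbp7 (-0.046) and Irs1 (-0.0062) under quantile normalization and for Igfbp5 (0.015) with array weights. With libraries left out they turned for Igfbp4 (-0.14 to 0.044), Igfbp5 (-0.16 to 0.022) and Irs1 (-0.051 to 0.11), none of which was called. The groups share replicate numbers, but the deviations of same-numbered samples correlated by -0.02 to 0.10 only, so the numbers were not taken as pairs. The replicate block left 1 IGF gene called, Igfbp3, and 1045 of all genes in place of 1196. Few reads limit Igf2 (0 to 18 per library), Igfals (8 to 34) and H19 (12 to 133).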
